A study of Mus musculus with 18 samples.

Results

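MicroRNA precursor genes are the annotated loci of the short hairpins from which mature microRNAs are cut. They were selected in RNA from BV2 cells, an immortalised line of mouse microglia, the resident macrophages of the brain. Of 1180 annotated precursor genes among the 55487 genes of the count table, 560 had any read and 128 had a mean count of at least 10 in at least 1 of the 6 groups. These 128 genes are described here. A precursor gene was a row whose symbol begins with Mir and a digit, or with Mirlet, and does not end in hg, the suffix of longer host transcripts. The mean counts themselves chose the genes, so their counts below are a description and carry no test. The genes nearest the limit were Mir1898, Mir5616 and Mir6371 inside it, each with a highest mean count of 10, and Mir130b, Mir1983, Mir26b, Mir466l and Mir6924 outside it, each at 9.67.

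The 6 groups were the nuclear and the cytoplasmic fraction of untreated cells (0 h) and of cells kept for 12 or 24 h in 10 µM oxyhemoglobin, the oxygen-carrying form of hemoglobin. Each group had 3 libraries, 18 in all, and all groups came from this single immortalised line. Nothing in the labels says whether the 3 libraries came from separate cultures. The deposited table holds 1 mean per group and no value per library, so no spread between libraries, SD or p-value is given, and intervals below cover counting error only.

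A microRNA gene is transcribed by RNA polymerase II as a long primary transcript, or as part of the intron of a host gene. In the nucleus the enzyme Drosha with its partner Dgcr8 cuts the hairpin out, exportin-5 with the GTPase Ran carries it to the cytoplasm, Dicer trims it to a duplex, and an Argonaute protein takes up 1 strand, whose seed pairs with target messenger RNAs. In macrophages and microglia, microRNAs such as miR-155 and miR-146a are known for their part in inflammatory signalling. The libraries were made by tagmentation of total RNA fractions and not from size-selected small RNA. Reads from a primary transcript, from a host intron, from the opposite strand or from another copy of the sequence cannot be told apart at these loci. Whether the counting used the strand is not stated in the labels.

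The mature sequences of 91 of the 128 genes could be shown from RefSeq (GRCm38.p6). Those below belong to the genes on which the results turn, namely loci with high counts or large ratios, the pair with a shared seed and genes set beside their hosts. Capitals mark the seed, bases 2 to 8 counted from the 5′ end.
miR-6236: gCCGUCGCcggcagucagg
miR-5136: aUAUGCGAgggaacuacugg
miR-763: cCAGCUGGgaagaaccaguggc
miR-8091: aGGAGUGAgugguaagcuggug
miR-703: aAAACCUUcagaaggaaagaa
miR-7a-5p: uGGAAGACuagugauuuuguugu
miR-674-5p: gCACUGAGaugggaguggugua
miR-674-3p: cACAGCUCccaucucagaacaa
miR-221-3p: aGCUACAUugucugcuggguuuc
miR-222-3p: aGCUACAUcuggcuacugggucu
miR-142b: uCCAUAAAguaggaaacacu
miR-146a-5p: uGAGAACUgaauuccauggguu
miR-99a-5p: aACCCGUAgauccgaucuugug
miR-103-3p: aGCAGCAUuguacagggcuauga
miR-326-3p: cCUCUGGGcccuuccuccagu
Across the 140 mature sequences of these genes there were 139 distinct seeds. Among these 91 genes, which hold none of the 22 from the intron cluster of Sfmbt2, 1 seed was common to 2 genes, GCUACAU in miR-221-3p and miR-222-3p, which are neighbours on the X chromosome.

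Mean totals per library were 4884190 to 5343960 counts in the nuclear groups and 5512440 to 7459860 in the cytoplasmic groups. The untreated fractions were checked against known RNAs on the log2 nuclear-to-cytoplasmic scale. The nuclear RNAs Malat1, Neat1 and Kcnq1ot1 were at 3.02, 4.15 and 3.17, and the messenger RNAs Actb and Eef1a1 were at -3.79 and -4.47. Gapdh and Tmsb4x went the other way, at 1.54 and 3.39. Of 9 microglia and macrophage markers Ptprc, Spi1, Trem2 and Csf1r had reads in every group, while Aif1 had a mean count of 7.67 in untreated nuclei and of at most 0.667 in the cytoplasm. The 9 together came to 945, 548 and 485 counts per 1000000 (CPM) in the nuclear series from 0 to 24 h, against cytoplasmic sums of 245, 325 and 293 CPM, and fewer cells with a transcript and less of it per cell cannot be told apart. Spi1 alone held 1424, 1659 and 1724 of the 1830, 1793 and 1906 cytoplasmic mean counts of the 9. In that fraction Ptprc, Trem2 and Tyrobp fell, Trem2 from 175 to 28.7 and 53.3, while Itgam rose from 2.67 to 3.33 and 6. In nuclei only Spi1 and Itgam of the 9 had more counts at 12 and 24 h than at 0 h. Of 13 markers of other cell types, Syt1, Aqp4, Mog and Hba-a1 were at 0 in all 6 groups, and the 13 together came to 21.6 to 23.1 CPM in the nuclear groups and 9.61 to 15.1 CPM in the cytoplasmic groups. The highest of the 13 were Alas2 in nuclei, with 62, 71 and 56 mean counts at 0, 12 and 24 h, and Mbp in the cytoplasm, with 64.3, 22 and 84.3. Col1a1 and Col3a1 were at 15 and 13.3 mean counts in the cytoplasm at 12 h and at most 2 elsewhere. Whether any other cells were present, or had a part in the results, was not tested.

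The 128 precursor genes held few reads, and most of those were nuclear. Their summed share was 672, 558 and 506 counts per 1000000 in nuclei (0, 12 and 24 h), and 59.2, 68.8 and 74.2 in the cytoplasm. A nuclear group was the highest of the 6 for 124 of the 128 genes. Of the 128, 67 reached a mean count of 10 in all 3 nuclear groups, 37 reached it in 1 group only, and 9 reached it in any cytoplasmic group. Only 1 reached it in the cytoplasm alone, so the limit chose genes with nuclear counts and nothing is read from the nuclear excess. The loci are 54 to 139 bases long, with a median of 88. The 40 genes with the highest summed counts held 67.3% of all counts on the 128.

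Mir133a-2, whose microRNA is known from skeletal and heart muscle, had the highest counts of the set. Its mean count was 384, 345 and 386 in nuclei at 0, 12 and 24 h, and 51.7, 22.3 and 50.7 in the cytoplasm. The hairpin lies on chromosome 2 (GRCm38, 180398379 to 180398482) outside any annotated gene, and the annotated Mir133a-1 sequence is 91.2% identical to it, so reads may be split between them. Its neighbour Mir1a-1, of the second muscle family, had 70, 37.7 and 42.7 counts in nuclei and at most 1.67 in the cytoplasm. Neither passed the call in nuclei at either time.

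Mir763 had 153, 235 and 195 counts in nuclei and 4.33, 7.67 and 11.7 in the cytoplasm. It lies at chr10:120447991-120448110 in an intron of Hmga2, a chromatin architectural protein. Mir221, on the X chromosome outside any annotated gene, had 86.3, 78.3 and 92 counts in nuclei and at most 1.67 in the cytoplasm. The same-seed neighbour Mir222 had 33.7, 24 and 23.7 in nuclei and at most 0.333 in the cytoplasm. miR-221 and miR-222 are known to repress the cell cycle inhibitor p27. The nuclear log2 ratio to 0 h of Mir221 was -0.04 at 12 h (95% counting interval -0.30 to 0.22) and that of Mir222 was -0.39 (-0.85 to 0.06). Neither gene was called at 12 or 24 h.

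Mir7-1, in an intron of the RNA-binding protein gene Hnrnpk, had 43, 72.7 and 57.7 counts in nuclei and at most 0.667 in the cytoplasm. miR-7 is known in brain as the microRNA bound by the circular RNA Cdr1as. Its nuclear log2 ratio was 0.86 at 12 h (0.53 to 1.18) and 0.59 at 24 h (0.26 to 0.93), under the 2-fold limit. Mir674, on chromosome 2 outside any annotated gene, had 49, 33 and 30.3 counts in nuclei and at most 1.33 in the cytoplasm. Its nuclear log2 ratios were -0.47 (-0.85 to -0.09) and -0.52 (-0.92 to -0.13), also under the limit. The other genes among the 12 with the highest summed counts were Mir5125 in Srrm2 with 76.3 counts in untreated nuclei, Mir7669 in Ubap2l with 68.7, Mir28b with 61, Mir1957a in Slc2a1 with 41.7 and Mir7663 in Tbpl1 with 56. In the cytoplasm these 5 stayed at or under 6. The plot of counts on the leading genes shows nuclear points to the right of cytoplasmic ones for all but Mir8091, Mir6236 and Mir703.

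**Figure D1:**
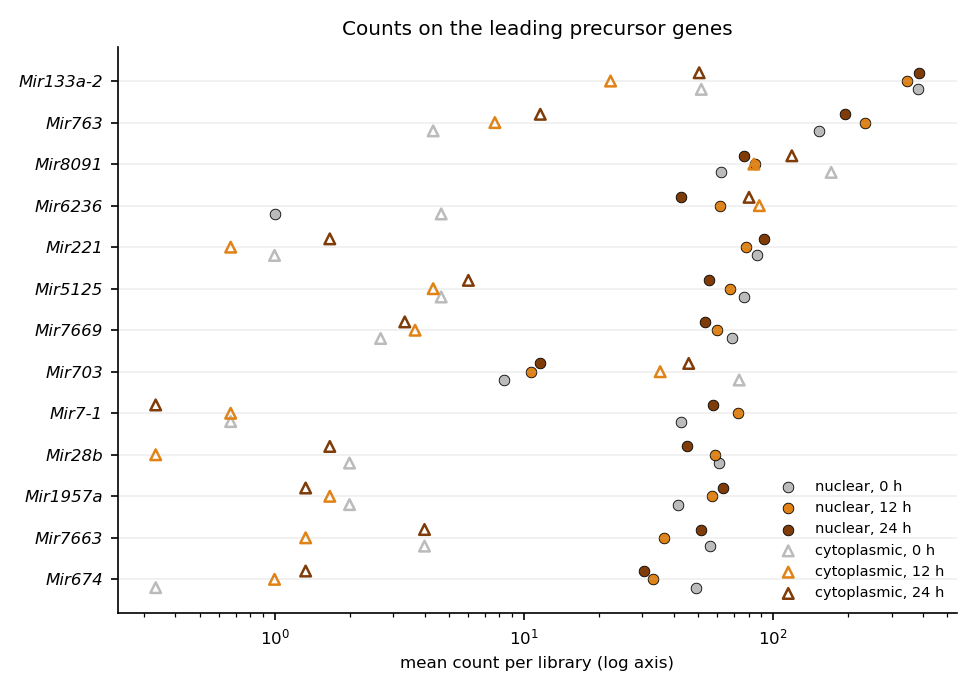
Mean count per library (log axis) of the 12 precursor genes with the highest summed counts and of Mir674, by fraction and hours of oxyhemoglobin. Nuclear circles lie to the right of cytoplasmic triangles in 10 of these 13 genes, and Mir6236 is the gene whose 0 h points stand far to the left of its later points.

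Nuclear and cytoplasmic groups were compared after all 6 means had been scaled together with TMM, the trimmed mean of log ratios, so each ratio is relative to the typical gene and not per cell. Calls required a ratio of 2-fold or more, with a counting interval clear of 0 on the log2 scale. At 0 h 120 of the 128 were called higher in nuclei and 4 lower, beside 47.5% and 32.7% of the 17902 genes compared. At 12 h 111 were higher and 4 lower, beside 46.4% and 29.3%, and at 24 h 109 were higher and 4 lower, beside 45.7% and 28.9%. The median log2 ratio of the precursor genes was 3.33, 2.91 and 2.72 at the 3 times, and that of all genes 0.78, 0.81 and 0.75. Since nuclear counts brought most of these genes over the limit, nothing is read from these counts. Mir674 had a log2 ratio of 6.40 at 0 h (3.90 to 11.71), from 1 cytoplasmic read in 3 libraries, and Mir7-1 one of 5.21 (3.33 to 8.27). The 4 genes without a call at 0 h were Mir1934, Mir5136, Mir466m and Mir7013, the last pair named after their values were seen.

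**Figure D2:**
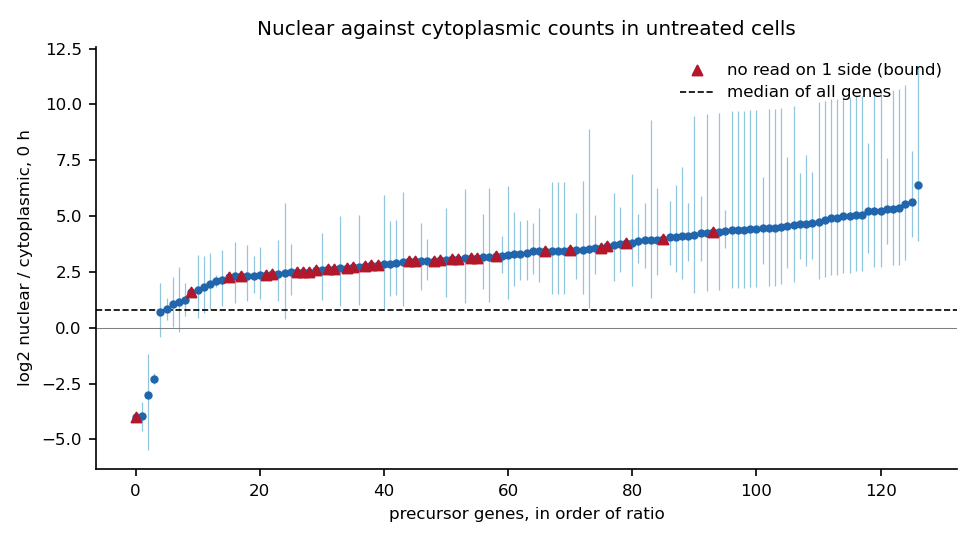
Log2 ratio of nuclear to cytoplasmic counts in untreated cells for each precursor gene with a ratio, in order of size, with 95% counting intervals. Triangles are bounds for genes with no read in 1 fraction, the dashed line is the median of all genes at 0.78, and 4 genes lie below 0.

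The 4 genes lower in nuclei were the same at all 3 times, namely Mir8091, Mir6236, Mir703 and Mir7688, the last chosen after its values were seen. With total counts in place of TMM only 2 genes were called lower at each time, and the log2 ratio of Mir6236 went from -3.03, -1.56 and -1.58 to -1.61, -0.46 and -0.63. Mir703 had 8.33, 10.7 and 11.7 counts in nuclei and 73.3, 35.3 and 46 in the cytoplasm, a log2 ratio of -3.94 at 0 h (-4.60 to -3.34). Its locus at chr5:98475556-98475664 lies opposite an intron of Cfap299, which had no read in any group. Over 109 bases the annotated Mir703 sequence is 98.2% identical to a transcript of Eef1a1, a translation elongation factor and abundant cytoplasmic messenger RNA. Eef1a1 had 4447, 5693 and 4347 counts in nuclei and 56498, 17235 and 21046 in the cytoplasm. Unscaled counts of both were highest in the untreated cytoplasm and lowest there at 12 h, and so were the cytoplasmic totals. Scaled cytoplasmic log2 ratios to 0 h were -1.25 at 12 h and -1.31 at 24 h for Eef1a1. Those of Mir703 were -0.59 and -0.56, under the 2-fold limit. Reads of the 2 genes could be split by the alignment, and how many were was not tested.

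Mir8091, at chr19:41588651-41588789 outside any annotated gene, had 62, 84.7 and 76.7 counts in nuclei and 172, 84 and 119 in the cytoplasm. Its log2 ratio was -2.27 at 0 h (-2.52 to -2.03), -1.03 at 12 h (-1.29 to -0.77) and -1.31 at 24 h (-1.55 to -1.07), but with total counts in place of TMM the 12 h ratio was 0.068. Mir7688, at chr10:93433107-93433162, had 0, 0.333 and 2 counts in nuclei and 9, 13 and 9.67 in the cytoplasm. It was the 1 gene that passed the limit only through a cytoplasmic group.

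The position of the loci was not part of the rule that chose them. Of the 128, 90 lay in an intron of a gene on the same strand, 3 overlapped an exon of such a gene (Mir5107, Mir8094 and Mir5129, chosen after their values were seen), 20 lay opposite an intron of a gene on the other strand only, and 15 lay outside any annotated gene. A host on the same strand was thus annotated for 72.7% of them, against 78.5% of the 432 precursor genes with reads under the limit and 62.4% of the 620 with no read. Overlap with a same-strand exon was found for 3 of the 128, 33 of the 432 and 210 of the 620. Reads that overlap exons of several genes can be left out of counting, and the part of this was not tested. Counts were also taken for the gene that spans each locus, on the same strand or, where none does, on the other. Its median mean count in untreated nuclei was 222 for the 128 genes, 77.3 for those under the limit and 5.33 for those with no read. The levels of the spanning genes followed this order, with no test made.

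A single intron of Sfmbt2 held 22 of the 128, from the Mir297, Mir466, Mir467 and Mir669 families, over 51617 bases of chromosome 2. Sfmbt2 is a Polycomb-related gene known for an imprinted microRNA cluster in placenta. The 22 summed to 291, 261 and 229 counts in nuclei and to 9.67, 14.3 and 8.33 in the cytoplasm. The nuclear log2 ratio of the sum was -0.06 at 12 h (-0.20 to 0.08) and -0.18 at 24 h (-0.33 to -0.03), and none of the 22 was called at either time. Sfmbt2 itself had fewer than 10 mean counts in every group. Of the 26 precursor genes with a near-identical annotated gene (at least 90% identity over at least 80% of the length), 21 were in this intron, so their single counts are uncertain.

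In nuclei 127 of the 128 passed the filter on low counts. At 12 h 9 were called higher and 16 lower than at 0 h, or 7.09% and 12.6%, beside 7.92% and 6.64% of the 17295 genes compared. At 24 h 6 were higher and 19 lower, beside 7.88% and 5.75%. The median log2 ratio of the 127 was -0.23 at 12 h and -0.32 at 24 h, against 0.00 and -0.02 for all genes compared. With total counts in place of TMM the split was 5 higher and 23 lower at 12 h and 5 and 36 at 24 h, while the median of all genes moved to -0.21 and -0.32. That of the precursor genes moved by the same amount, to -0.44 and -0.62. Both comparisons share the 0 h group, which was the highest of the 6 for 81 of the 128 and so brought many of them over the limit, and nothing is read from these counts. Between 12 and 24 h, 1 gene was called higher (Mir5136) and 3 lower (Mir7647, Mir6937 and Mir99a), beside 1.83% and 1.19% of all genes. Mir7647, Mir6937 and Mir99a were named after their values were seen.

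**Figure D3:**
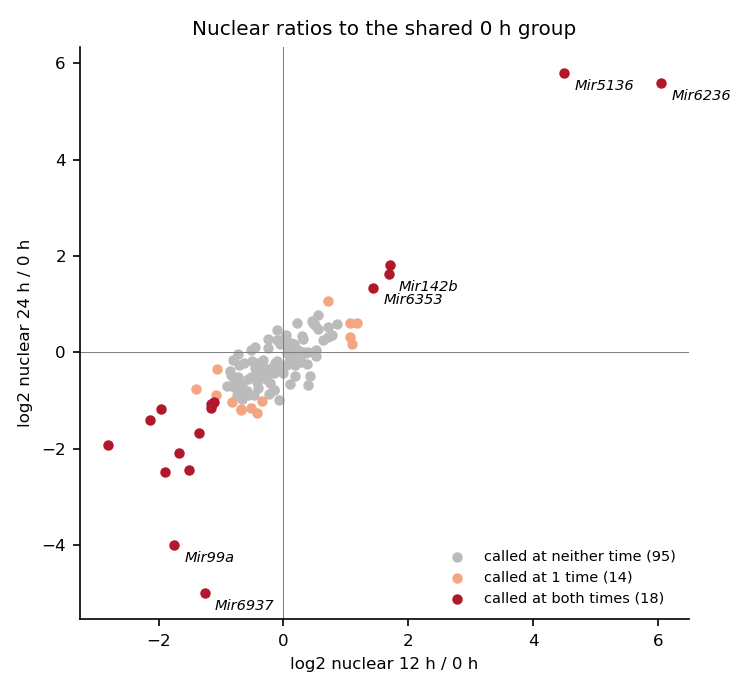
Log2 ratio of nuclear counts at 12 h (x) and at 24 h (y) to the shared 0 h group for the 127 precursor genes compared. Colours give whether the 2-fold call was made at neither time (95 genes), at 1 time (14) or at both (18), and Mir6236 and Mir5136 lie far from the others at the upper right.

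Mir6236 had the largest ratio of the set at 12 h. Its mean count was 1, 61.7 and 42.7 in nuclei at 0, 12 and 24 h, and 4.67, 88.3 and 80.3 in the cytoplasm. Both fractions were low at 0 h and high at both later times. The nuclear log2 ratio was 6.05 at 12 h (4.48 to 8.34) and 5.59 at 24 h (4.01 to 7.88), and the cytoplasmic one 4.71 (3.93 to 5.60) and 4.22 (3.44 to 5.11). In order of size it stood at place 10 of the 17295 genes compared in nuclei at 12 h and at place 45 of 11751 in the cytoplasm. Mir6236 reached 10 counts in oxyhemoglobin groups alone, so these ratios follow in part from how it was chosen. The locus, chr9:110281287-110281409 on the plus strand, lies in no annotated gene.

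Mir5136, at chr19:8888699-8888774 opposite an intron of Lbhd1, had 0.667, 14 and 33 counts in nuclei and 0, 10.7 and 12.3 in the cytoplasm. Its nuclear log2 ratio was 4.49 (2.55 to 7.58) at 12 h and 5.80 (3.91 to 8.87) at 24 h, resting on 2 reads at 0 h. In the cytoplasm, where no read was counted at 0 h, it was at least 3.88 at 12 h and 3.74 at 24 h if 3 reads are taken for the whole 0 h group. Lbhd1 itself had 42, 60.3 and 57.7 counts in nuclei, with a log2 ratio of 0.62 at 12 h (0.29 to 0.96).

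A gene annotated as ribosomal RNA on chromosome 17, CT010467.1, was set beside these loci after its values were seen. It had 1648, 9959 and 6761 counts in nuclei and 6726, 17369 and 15654 in the cytoplasm. Its nuclear log2 ratios were 2.69 (2.65 to 2.74) and 2.21 (2.16 to 2.25), and the cytoplasmic ones 1.83 and 1.33. Like Mir6236 and Mir5136 it was lowest at 0 h in both fractions, with smaller ratios. The other gene with counts on the list for the ribosomal RNA locus, ENSMUSG00000118642, which has no symbol here, did not follow that order in its counts. It had 908579, 861423 and 1183360 counts in nuclei and 6081, 3501 and 8570 in the cytoplasm, so its unscaled counts were lowest at 12 h in both. After scaling, its log2 ratios to 0 h were 0.02 at 12 h and 0.55 at 24 h in nuclei. In the cytoplasm they were -0.33 and 0.61, so only there was it below 0 h at 12 h. None of the 128 precursor sequences aligned to a transcript annotated as ribosomal RNA at an expectation value of 1e-05 or lower, and the sequence of the large ribosomal RNA precursor was not used here. The part of ribosomal RNA in these 2 loci was not tested.

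**Figure D4:**
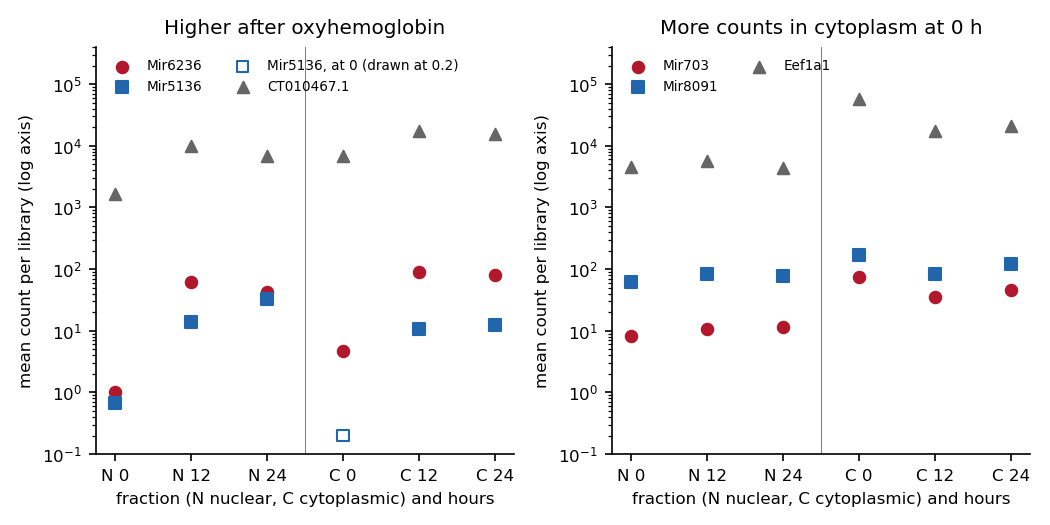
Mean counts per library (log axis) by fraction and hours. In the left panel Mir6236, Mir5136 and the ribosomal RNA gene CT010467.1 are lowest at 0 h in each fraction, and in the right panel Mir703, Mir8091 and Eef1a1 are highest in the untreated cytoplasm, where Eef1a1 has 56498 counts.

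A further 3 genes were higher in nuclei at both times. Mir6353, in an intron of Pid1, had 21, 53 and 47.3 nuclear counts and log2 ratios of 1.43 (1.00 to 1.88) and 1.34 (0.90 to 1.79). Its host, with 814, 1041 and 905 counts, had ratios of 0.45 and 0.32, and the counting intervals of the 2 did not overlap. Mir142b, from the strand opposite the blood-cell host transcript Mir142hg and just outside the 40 highest genes, had 9, 27 and 24.7 counts. Its ratios were 1.68 (1.04 to 2.37) and 1.62 (0.97 to 2.32), while Mir142hg had 540, 515 and 539 counts and ratios of 0.03 and 0.17.

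Mir6539, Mir146 and the lower genes named next lie outside the 40 highest by count, except Mir3075, Mir1955 and Mir466i, and were chosen after their values were seen. Mir6539 had 5.33, 16.3 and 16.7 nuclear counts and ratios of 1.71 (0.87 to 2.63) and 1.81 (0.98 to 2.73). Its host Dock5, an activator of Rac, had 613, 1297 and 1181 counts and ratios of 1.18 and 1.12, within the interval of the precursor. Mir146, the gene of miR-146a, which NF-kB induces and which represses Traf6 and Irak1, had 12, 18.3 and 22.3 counts. Its ratio was 0.71 at 12 h (0.08 to 1.36), under the limit, and 1.07 at 24 h (0.46 to 1.69). Mir1b, Mir6386, Mir7059 and Mir6955 were called at 12 h only, with ratios between 1.06 and 1.18.

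Of the 16 genes lower in nuclei at 12 h and the 19 at 24 h, 13 were in both sets. Mir3075, in an intron of Zmiz1, had 50.3, 21.7 and 22 counts and ratios of -1.12 and -1.02. Mir1955, in Phf21a, had 43.7, 18.3 and 17.3 counts and ratios of -1.15 and -1.16. Mir466i, opposite an intron of Cdk13, had 55, 38.3 and 20.3 counts and was called at 24 h only, at -1.27 (-1.71 to -0.83). Among genes with 10 to 30 counts in untreated nuclei, Mir150, whose microRNA is known to repress Myb in lymphocytes, had 27, 11.3 and 11.3.

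Chosen as examples from the genes called lower, precursors of 3 conserved microRNAs lay in hosts with ratios below 0. Not every host of a lower gene was below 0, as the pairs described next show. Mir103-2, in the pantothenate kinase gene Pank2, had 14.7, 3.67 and 2.33 counts, with ratios of -1.90 (-3.0 to -0.92) and -2.48 (-3.88 to -1.32). The annotated Mir107 sequence is 90.5% identical to that of Mir103-2, so reads may be split between them. Pank2 had 130, 41.7 and 65.3 counts and ratios of -1.54 and -0.82. Mir326, in the beta-arrestin gene Arrb1, had 16.3, 5.33 and 2.67 counts, with ratios of -1.52 (-2.43 to -0.68) and -2.44 (-3.73 to -1.35), beside 272, 137 and 108 counts and ratios of -0.89 and -1.16 for the host. Mir99a, in the long noncoding host Mir99ahg, had 12, 3.33 and 0.667 counts, with ratios of -1.75 (-2.93 to -0.71) and -4.00 (-7.10 to -2.04), beside 452, 258 and 213 counts and ratios of -0.71 and -0.92 for the host. The hosts were below 0 h each time. These 3 precursors reached 10 counts in untreated nuclei alone, so a lower ratio than that of the host follows in part from how they were chosen. Mir6937, in Adi1, passed the limit through its 12 counts at 0 h as well, and had a ratio of -5.00 (-10.34 to -2.43) from 1 read in the 3 libraries at 24 h, while Adi1 had 89.7, 75 and 88.7 counts.

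Precursors were then set beside their hosts, with 1 precursor per host on the same strand, 67 pairs in all. The pairs share their libraries and scaling, so the correlation is a description. Across the 67 pairs the nuclear log2 ratios at 12 h had a Pearson r of 0.60 and a Spearman rho of 0.56, and those at 24 h an r of 0.42 and a rho of 0.44. The precursor was above its host in 21 of the 67 pairs at 12 h and in 18 at 24 h, with medians of -0.28 and -0.36 for precursors and 0.11 and 0.02 for hosts. The 0 h nuclear counts brought many of these precursors over the limit, which was not asked of the hosts, so nothing is read from that gap. The counting intervals of precursor and host overlapped in 51 pairs at 12 h and in 48 at 24 h. Of the 11 precursors lower at 12 h, 1 had a host that was called lower and 10 had a host with a ratio below 0. Of the 13 lower at 24 h, 1 had a host called lower, 1 had a host called higher and 9 had a host with a ratio below 0. Of the 5 called higher at 12 h, 1 had a host called higher. Among all 67 hosts, 3 were called higher and 1 lower at 12 h, and 2 and 1 at 24 h. The host medians lay close to 0, so a host ratio below 0 was common in the whole set, and nothing is read from these counts of hosts. Mir7-1 and Hnrnpk were among the pairs that did not overlap, since Hnrnpk had 1050, 995 and 748 nuclear counts and a ratio of 0.02 at 12 h (-0.05 to 0.09).

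The distribution between fractions was set beside the host in the same pairs. At 0 h the nuclear-to-cytoplasmic log2 ratios of the 67 pairs had an r of 0.10 and a rho of 0.09. The median was 3.44 for the precursors and 0.54 for their hosts, and the precursor was above its host in 59 pairs. Of the hosts 30 were called higher in nuclei and 23 lower, and 66 of the 67 precursors were higher in nuclei. The limit of 10 counts, which only 9 of the 128 met in any cytoplasmic group, chose precursors with nuclear counts, so their place above the hosts is set by the choice and nothing is read from it. Mir3075 had a ratio of 3.44 and its host Zmiz1 one of -1.85, and Mir7663 had a ratio of 3.00 and its host Tbpl1 one of -2.63. Mir763 and Hmga2 were alike, at 4.34 and 4.79.

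**Figure D5:**
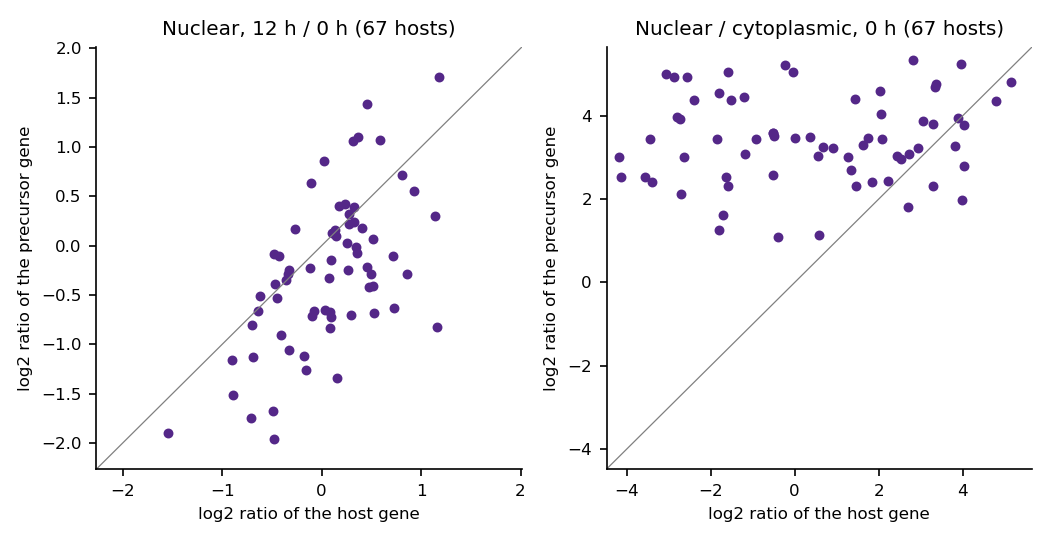
Log2 ratio of each precursor gene against that of the host gene whose intron holds it, with the line of equal ratios, for nuclei at 12 h against 0 h (left) and nuclei against cytoplasm at 0 h (right), 67 pairs each. On the left 21 of the 67 points lie above the line, with r 0.60, and on the right 59 do, where the limit on counts that chose the precursors was met almost only by nuclear groups.

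In the cytoplasm 9 of the 128 passed the filter on low counts. At 12 h 4 were called higher and 0 lower than at 0 h, beside 11.7% and 8.99% of the 11751 genes compared, and at 24 h 3 were higher and 0 lower, beside 10.4% and 6.71%. Mir6236, Mir5136 and Mir763 were called at both times and Mir1931 at 12 h. Before oxyhemoglobin each of these genes was under 10 cytoplasmic counts, and each passed the filter through later groups alone. The filter thus favoured higher calls among them, and nothing is read from this split. Mir763 had cytoplasmic log2 ratios of 1.29 (0.25 to 2.39) and 1.54 (0.59 to 2.58), and its host Hmga2, with 15, 22.3 and 40 cytoplasmic counts, had ratios of 1.04 and 1.53. Mir1931, in Cdk17, had 7, 13.7 and 11.7 counts and a ratio of 1.43 at 12 h (0.64 to 2.26), and 785, 738 and 810 counts were on its host. From the deposited TPM values (transcript abundances per 1000000) with 1 added, the split was 2 higher and 3 lower at 12 h and 2 and 1 at 24 h. The median log2 ratio of all genes compared was then -0.51 at 12 h and -0.40 at 24 h, and that of the 9 was 0.25 and -0.21. No gene was called between 12 and 24 h, beside 2.9% and 1.89% of all genes.

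Of 38 genes that make, export, load or turn over microRNAs, 36 were compared in nuclei and 33 in the cytoplasm. In nuclei 2 were called higher and 1 lower at 12 h, beside 7.92% and 6.64% of all genes, and 1 and 0 at 24 h, beside 7.88% and 5.75%. In the cytoplasm 3 were higher and 5 lower at 12 h, beside 11.7% and 8.99% of all genes, and 3 and 4 at 24 h, beside 10.4% and 6.71%. The medians were -0.08 and -0.11 in nuclei and -0.11 and -0.19 in the cytoplasm, against -0.04 and -0.06 for all genes compared in the cytoplasm.

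Zc3h12a, an endonuclease that cuts inflammatory messenger RNAs and the loops of microRNA precursors, had the largest ratios of the list. It had 178, 632 and 411 counts in nuclei and 132, 1127 and 902 in the cytoplasm, with ratios of 1.92 (1.78 to 2.06) and 1.38 (1.23 to 1.52) in nuclei and of 3.56 (3.40 to 3.71) and 2.88 (2.73 to 3.04) in the cytoplasm. Ran, the GTPase of hairpin export, had 15.7, 31.3 and 27.7 counts in nuclei and 24, 61.3 and 58 in the cytoplasm, with cytoplasmic ratios of 1.82 (1.42 to 2.23) and 1.38 (0.98 to 1.80). The silencing scaffold Tnrc6c was also higher in the cytoplasm, at 7.33, 14.7 and 14 counts. The gene called lower in nuclei was Tut4, which adds uridines to let-7 precursors, with 245 counts at 0 h and 114 at 12 h.

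Lower in the cytoplasm at 12 h were the hairpin-cutting enzyme Drosha, the Dicer partner Prkra, the Argonautes Ago2 and Ago4 and the scaffold Tnrc6b. Their ratios lay close together. Drosha had 31, 9.67 and 13.7 cytoplasmic counts and a ratio of -1.22 (-1.87 to -0.60), and Ago2 had 33840, 11345 and 14996 and a ratio of -1.11 (-1.13 to -1.09). In nuclei Drosha had 80, 75.7 and 79.3 counts. Dgcr8, Xpo5 and Dicer1, for the other steps of processing and export, were not called in either fraction at either time.

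Of 17 longer transcripts that carry microRNAs, 10 were compared in nuclei. Mir22hg had 225, 677 and 336 nuclear counts and a ratio of 1.69 at 12 h (1.56 to 1.81). Mir155hg, the host of the inflammatory miR-155, had 36.3, 102 and 79.7 counts and ratios of 1.58 (1.26 to 1.91) and 1.30 (0.97 to 1.64). Mir670hg had 21.7, 5.33 and 8.67 counts and ratios of -1.92 (-2.81 to -1.12) and -1.15 (-1.87 to -0.48). These 3 were the calls in nuclei at 12 h, 2 higher and 1 lower of 10, beside 7.92% and 6.64% of all genes, and the median of the 10 was -0.10.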

How the data were processed

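RNA was sequenced from nuclear and cytoplasmic fractions of BV2 cells in 6 groups of 3 libraries. Per the submitters' processing notes, HISAT2 2.2.0, featureCounts and DESeq2 were used with build GRCm38. The deposited table holds estimated counts, 1 column per group, each value whole within 0.001 when multiplied by 3, and was read as the authors' mean of 3 libraries. The deposited TPM values, also 1 per group, were used as an alternative. All 6 of its columns were used. The tests planned for replicated counts were replaced by ratios of means, a choice made after the files were seen.

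Symbols came from GENCODE M21 (55227 of 55487 identifiers) and sequences from RefSeq. Totals were scaled by TMM (30% of log ratios and 5% of mean expression trimmed), per fraction for times and over all 6 means for fractions. Genes were compared if 1 group or more had a CPM worth 10 counts in a library of median depth. Intervals are exact Clopper-Pearson at 95% from the summed reads of 3 libraries. They were tried on data simulated with counting error alone, which cannot show how they hold where libraries also differ. A group at 0 was set to a floor of 3 reads. Near-identical genes were sought with blastn 2.17.0 against GENCODE transcripts. Ratios were computed in Python 3.11.15 (pandas 2.3.3, numpy 2.4.6, scipy 1.17.1) and drawn with matplotlib 3.10.9.

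The precursor genes, the lists and the comparisons were chosen with earlier results of these data known. The rule for named genes was the 40 genes with the highest summed counts, all 6 values for the 12 highest and 3 marked genes (Mir6236, Mir674 and Mir7-1), the hosts of the genes described, and the list genes that were called. This rule was not followed in full, since not all of the 40 are named and not all of the 12 have 6 values here. Dock5, Pank2, Arrb1, Hnrnpk, Hmga2 and CT010467.1 were set beside them after values were seen. Certain items of the lists are not reported here.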

Additional observations from a re-analysis of the deposited data

How the results depend on the processing

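No paired analysis was possible because the deposited columns are group means that carry no replicate number, and the planned edgeR, DESeq2 and leave-one-out fits were not run for the same reason. Counts of called precursor genes follow. At 1.5-fold they were 45 (nuclei, 12 h against 0 h), 44 (24 h against 0 h) and 11 (24 h against 12 h), and 7 (12 h against 0 h) and 2 (24 h against 12 h) in the cytoplasm; 21 of the 38 microRNA pathway genes and 7 of the 17 longer transcripts were then called at any time, against 11 and 4. With a limit of 20 counts in 1 group they were 11, 13 and 2 in nuclei and 60, 58 and 57 between fractions at 0, 12 and 24 h, and with a mean over the 6 groups of at least 10 they were 7, 7 and 1, and 44, 42 and 42; both limits leave fewer genes to compare. With total counts, 41 were called in nuclei at 24 h against 0 h. From TPM with 1 added, 58 were called there, 9 in nuclei at 24 h against 12 h and 1 in the cytoplasm at 24 h against 12 h. Under TPM the median log2 ratio of all genes in nuclei was -0.47 at 24 h against 0 h and -0.24 at 24 h against 12 h. Without the filter on low counts 7, 12 and 5 were called in the cytoplasm at 12 h, 24 h and between them, since more genes are compared. For called ratios of the 13 leading or marked genes, the sign changed in Mir8091 alone: its nuclear-to-cytoplasmic log2 ratio at 12 h was 0.068 with total counts, 0.095 from TPM and 0.32 with total counts without the highest nuclear gene, and at 24 h it was 0.0062 with the last; the cause was not tested. The other 55 counts under an alternative were within 1.5 times the main count. With 10 to 30 counts a gene, depth leaves 2-fold changes of single precursor genes with wide intervals.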
